A study of Homo sapiens with 6 samples.

Results

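FBXW7, FOXO1, SPRY2, ZBTB10, PHB, PINK1 and GRB2 are 7 genes that earlier literature reported as targets of the microRNA miR-27a. They were taken by gene symbol from the processed RNA sequencing table and make up 7 of its 20026 genes. The table covers HepG2, an established human liver cancer line, in 3 groups of 2 libraries: Scr cells with wild-type genotype, which received the empty Cas9-GFP plasmid, miR-23a-KO cells and miR-27a-KO cells. Knockout cells received the same plasmid carrying paired guides. Their colonies were grown from single sorted cells, so a library may carry features of the cell its colony came from. The study mentions selected colonies of scramble cells as well. The labels number the libraries of a group as replicates and do not say whether they come from the same colony. The cell type label of all 6 libraries reads triple-negative liver cancer cells, a term usually applied to breast tumours. The comparisons ask which of these genes had higher or lower RNA when either microRNA gene was edited.

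A microRNA guides the Argonaute protein to messenger RNAs by pairing its seed, a short stretch near its 5′ end, with sites that lie mostly in 3′ untranslated regions. The paired messages are translated less or degraded faster, so a direct target can have more RNA when its microRNA is lost, although part of the effect can fall on protein alone. miR-23a, miR-27a and miR-24-2 are cut from a shared primary transcript, so an edit at any of them may alter the others, and the level of the mature microRNAs and of the host transcript was not analysed here. The knockouts were not checked at the microRNAs themselves here, and the groups follow the labels.

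The mature sequences are shown because the seed defines which sites can pair. They are from RefSeq, build GRCh38.p14, written 5′ to 3′ with the seed, bases 2 to 8, in capitals.
miR-27a-3p: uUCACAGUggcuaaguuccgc
miR-27b-3p: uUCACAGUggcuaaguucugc
miR-23a-3p: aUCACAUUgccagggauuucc
miR-27a-3p lies at chr19:13836447-13836467 on the minus strand, and miR-23a-3p lies close to it at chr19:13836595-13836615 on the minus strand. miR-27b-3p comes from a different locus, chr9:95085505-95085525 on the plus strand. It has the same seed as miR-27a-3p and differs from it by 1 substitution, C19U, counted from 1 at the 5′ end. miR-23a-3p has another seed.

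The 7-base match to the miR-27 seed, ACTGTGA, was searched on the transcript strand in the longest annotated 3′ untranslated region of each gene (GENCODE on GRCh38), counting overlapping matches. It occurs in 16.7% of 15888 genes with such a region, and in 5 of the 7 genes, with 7 matches. The 7 genes were picked as reported targets, a choice that may favour genes with a match, so these shares are a description. Each is shown with its neighbours, 5′ to 3′ on the transcript strand, with the match in capitals, to show where pairing could occur.
FBXW7, position 503: gcttaaaaaaattACTGTGAa
FBXW7, position 1379: caactcaagctgaACTGTGAa
FOXO1, position 426: ctctttttgtaatACTGTGAt
FOXO1, position 2000: ttgtaagcttcccACTGTGAt
SPRY2, position 382: aataatatttgcaACTGTGAa
PHB, position 93: caccccagaaatcACTGTGAa
GRB2, position 2260: taggtagtgattaACTGTGAa
SPRY2, miR-23a match, position 458: gtacattcggaagAATGTGAa
The last line holds AATGTGA, the match to the miR-23a seed, which occurs in 19.3% of the same regions and in 1 of the 7 genes. An A follows the miR-27 match at 5 of the 7 positions, and the exceptions are the pair in FOXO1.

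The matches lie on the minus strand, at chr4:152322372-152322378 and chr4:152321496-152321502 in FBXW7 and at chr13:40558617-40558623 and chr13:40557043-40557049 in FOXO1. The SPRY2 match is at chr13:80336370-80336376, with its miR-23a match at chr13:80336294-80336300. The PHB match is at chr17:49404893-49404899 and the GRB2 match at chr17:75318102-75318108, near the end of a region of 2292 bases. Longer regions hold the letters more often: the match occurs in 31.7% of regions 0.8 to 1.25 times as long as that of FOXO1 and in 23.1% and 22.2% of those as long as the regions of FBXW7 and GRB2. For PHB and SPRY2, whose regions have 943 and 782 bases, the share is 9.57% and 7.79%. The letters are not in the 820 bases of PINK1 or the 6737 bases of ZBTB10, where 8.58% and 49.3% of similar regions hold them. A shorter seed match, ACTGTGA without its first letter, does occur there, 2 times in PINK1 and 2 times in ZBTB10. The share of other regions with that shorter match was not counted. A match describes the sequence and shows no binding.

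**Figure D1:**
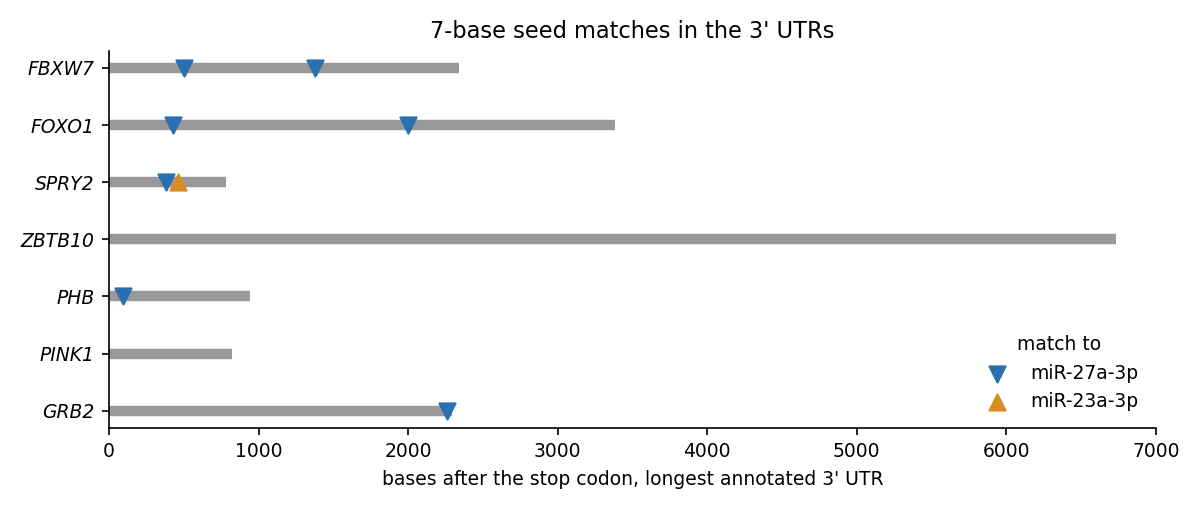
Matches to the miR-27 and miR-23a seeds along the longest annotated 3′ untranslated region of each gene, drawn to scale in bases from its start. There are 7 miR-27 matches in 5 genes and 1 miR-23a match, in SPRY2.

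The libraries hold 14405250 to 16515261 counts and 16557 to 17481 detected genes, and all 7 genes were detected in each and passed the filter on low counts. All 11 hepatocyte markers were detected in every library, with a summed library-size-scaled count (CPM) between 25870 in the miR-27a KO library 2 and 37350 in the Scr library 2, and SERPINA1 or ALB was the most abundant. Of 8 leukocyte markers, LYZ carried most of the sum in 5 of 6 libraries, with CD68 above it in the miR-23a KO library 1. The sum was 546 and 566 CPM in Scr, 1609 and 1670 in the miR-27a KO libraries and 268 and 257 in the miR-23a KO libraries, while PTPRC, the defining leukocyte gene, stayed between 0.0696 and 0.135. PDGFRB made up nearly all of the fibroblast sum of 17.5 and 29.3 in Scr, 5.82 and 5.12 in the miR-27a KO libraries and 30.0 and 19.8 in the miR-23a KO libraries, with 3 of 8 markers found in the table. The endothelial sum, over 5 of 6 markers, lay between 4.19 and 7.11, and PECAM1 was its most abundant gene in every library. Whether any of these sums bears on the 7 genes was not tested.

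The miR-27a KO libraries differed little from each other, and the miR-23a KO libraries differed widely. The median squared difference within a pair, divided by the counting variance, was 0.822 in miR-27a KO (12667 genes), 5.78 in Scr (12679 genes) and 71.6 in miR-23a KO (12723 genes), where counting noise alone gives 0.455. In miR-23a KO the gap followed base composition and transcript length: the median log2 ratio of library 2 to library 1 was 1.10 in the fifth of genes with the lowest GC content and -1.26 in the fifth with the highest, and r with GC content across 10410 genes was -0.706. The same r was -0.450 in Scr and -0.0682 in miR-27a KO. With log10 transcript length r was 0.519 in miR-23a KO, 0.199 in Scr and -0.0112 in miR-27a KO. Genes are not independent replicates, and these values describe the libraries.

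The 7 genes spread along both axes, with transcripts from 1952 bases for PHB to 10132 bases for ZBTB10. ZBTB10, with the lowest GC content (39.9%), was 4.55-fold higher in the miR-23a KO library 2 than in library 1, and FBXW7 (45.9%) was 4.38-fold higher. FOXO1 (46.4%) and SPRY2 (48.3%) were 2.56-fold and 1.63-fold higher in library 2. GRB2 (52.3%) differed by 1.05-fold. PHB (54.1%) and PINK1 (58.6%) stood 2.47-fold and 1.65-fold higher in library 1. Base composition, transcript length and any effect of the miR-23a edit cannot be told apart from libraries that differ in this way.

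**Figure D2:**
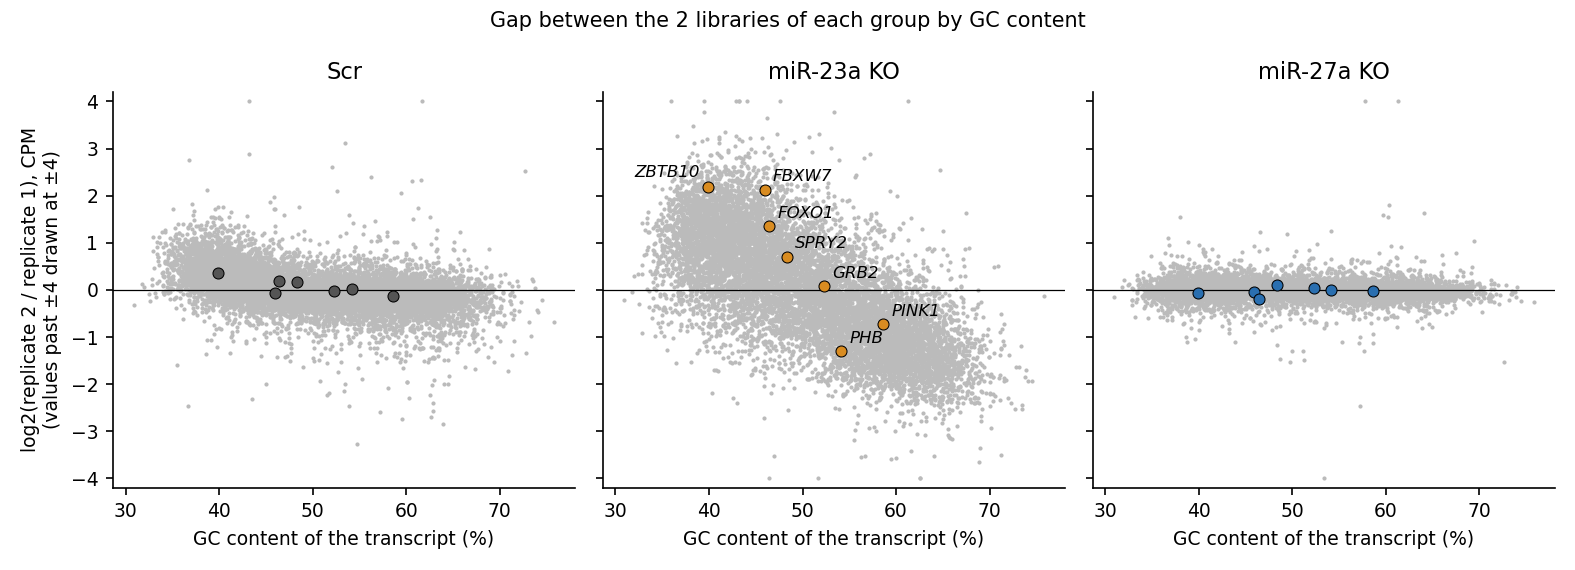
Log2 ratio of library 2 to library 1 within each group against transcript GC content in percent, for all genes (values past 4 or -4 drawn there) and for the 7 genes. In miR-23a KO the ratio lies between 2.18 for ZBTB10 (39.9% GC) and -1.30 for PHB (54.1% GC).

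Per kilobase of transcript, PINK1, a mitochondrial kinase, had the highest level of the 7 in Scr, at 484 ± 28.5 CPM per kilobase (SD, n = 2 here and below). A doubt about which reads were counted under PINK1 is described with that gene below. PHB, prohibitin, a scaffold protein of the inner mitochondrial membrane, followed at 221 ± 1.99, and GRB2, the adaptor that links growth factor receptors to RAS, at 55.8 ± 0.901. SPRY2, a feedback inhibitor of the same receptors, had 5.74 ± 0.456 and FOXO1, a transcription factor restrained by insulin, 4.01 ± 0.358. FBXW7, the substrate receptor of a ubiquitin ligase, had 0.807 ± 0.0250, and ZBTB10, a zinc finger repressor, 0.446 ± 0.0771. Neighbours in this order are further apart than their SDs in Scr. In miR-27a KO, SPRY2 (2.93 ± 0.161) lay below FOXO1 (4.47 ± 0.436), and the other 5 kept their places. In miR-23a KO the order was that of Scr, but the SDs were as wide as 139 for PINK1 (mean 399), 163 for PHB (mean 272) and 1.03 for FBXW7 (mean 1.16). Across these libraries PINK1 overlapped PHB, SPRY2 overlapped FOXO1 and FBXW7 overlapped ZBTB10. Within each pair the gap between the libraries ran the same way. In each library taken alone, PINK1 lay above PHB, SPRY2 above FOXO1 and FBXW7 above ZBTB10.

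**Figure D3:**
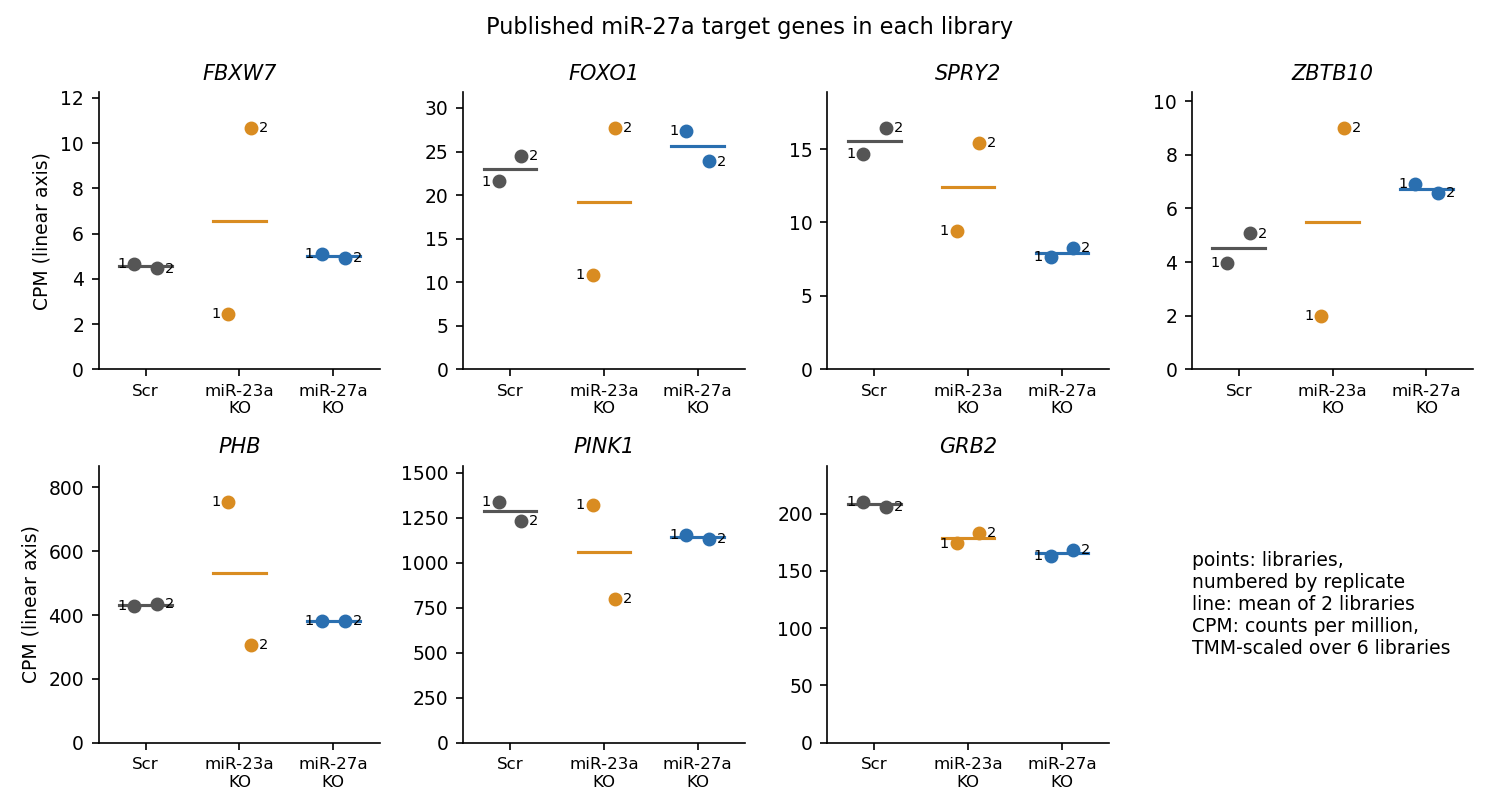
Library-size-scaled counts (CPM) of each of the 7 genes in each of the 6 libraries, on a linear axis from 0 for each gene, with a point per library and a line at the group mean. SPRY2 in miR-27a KO (7.64 and 8.25) lies below all other libraries, and the points of miR-23a KO are the furthest apart for FBXW7 (2.44 and 10.7) and ZBTB10 (1.98 and 8.99).

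Loss of miR-27a was compared with Scr to ask whether its reported targets had more RNA. None of the 7 rose. SPRY2 fell, to 0.51 of its Scr level, and GRB2 was lower by less than the fold required. FBXW7 and ZBTB10 were above both Scr libraries, PHB and PINK1 were below both, and FOXO1 overlapped Scr. A call needed more than a 1.5-fold difference and an adjusted p under 0.05 in the edgeR quasi-likelihood test, adjusted by Benjamini-Hochberg over all 13820 genes tested. The p-values measure only the spread between these libraries, which are few per group. In these cultures fewer cells with a transcript and less RNA per cell cannot be told apart.

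By that rule edgeR called 0 of the 7 up, where 3.52% of all genes tested were called up, and 1 down, where 6.74% were called down. DESeq2 and limma-trend also called 1 of the 7. At an adjusted p under 0.001, 0 were called up and 0 down, where the share of all genes is 0.0145% in either direction. An unadjusted p under 0.05 was reached by 2 of the 7 against 32.2% of all genes. For 2 of the 7, both miR-27a KO libraries exceeded both of Scr, where this holds for 32.4% of all genes, and for 4 of the 7 both were lower, where this holds for 31.9%. The median log2 fold change was -0.17 over the 7 and 0.01 over all genes, with 3 of 7 positive against 50.9%. With the correction for GC content and length the medians were -0.002 and -0.01, and without Scr library 1 that of the 7 was -0.10. The calls rest on 1 gene, and the share with both libraries lower is above that of all genes, a difference that was not tested.

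The number of calls depends on single libraries. With a library left out, the spread comes from the pair of the other group alone, which assumes that both groups vary alike. Over all genes, edgeR called 1418, and this became 2270 without Scr library 1, 3716 without Scr library 2, 424 without miR-27a KO library 1 and 334 without miR-27a KO library 2. Fitting all 6 libraries together, with the spread of miR-23a KO in the error, left 64 calls, and of the genes named from the lists below it kept DUSP4, PCK1 and AFP. Of the 7 genes, 1 was called without Scr library 1, 2 without Scr library 2 (SPRY2 down, ZBTB10 up) and 0 without either miR-27a KO library or with all 6 libraries in the fit.

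SPRY2 (Entrez 10253, chr13:80335976-80340951, minus strand) encodes Sprouty2, which dampens signalling from receptor tyrosine kinases to ERK and is itself induced by that pathway. It measured 14.7 and 16.4 CPM in Scr, 7.64 and 8.25 in the miR-27a KO libraries and 9.44 and 15.4 in the miR-23a KO libraries. Both miR-27a KO libraries were below all 4 others. SPRY2 was 1.96-fold lower in miR-27a KO than in Scr (log2 fold change -0.97, SE 0.18, edgeR adjusted p 0.0298). The 95% interval of the log2 fold change was -1.42 to -0.52. The difference is downward, and the 3′ untranslated region holds the miR-27 match at position 382 shown above. Without miR-27a KO library 1 the adjusted p was 0.294, without library 2 it was 0.262, and with all 6 libraries in the fit 0.593, over alternatives from 0.00174 to 0.593. The log2 fold change in these settings was -0.91, -1.02 and -0.97.

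The other Sprouty and Spred genes, inhibitors of the same pathway, include 4 of 6 with enough counts to test. Of these, 2 fell, 0 rose and 2 did not pass, where 6.74% of all genes were called down. An unadjusted p under 0.05 was reached by 3, against 32.2% of all genes. This list and those below were chosen with earlier results of these data known, so their counts and medians are descriptions. The median log2 fold change was -0.66. With 5 genes tested it was -1.04 without Scr library 2, and -0.94 and -1.11 without miR-27a KO library 1 and 2. SPRY4 measured 62.5 and 59.4 CPM in Scr, 24.1 and 25.2 in the miR-27a KO libraries and 42.6 and 49.2 in the miR-23a KO libraries, and fell by 1.31 on the log2 scale (adjusted p 0.00547). SPRY1 measured 21.36 and 21.02 in Scr, 9.76 and 11.0 in the miR-27a KO libraries and 12.8 and 17.8 in the miR-23a KO libraries, and fell by 1.03 (adjusted p 0.0196). For both, the miR-27a KO libraries lay below the other 4. SPRED2, the most abundant of the list per kilobase, had a log2 fold change of -0.29 (adjusted p 0.0681). Without miR-27a KO library 1 or 2 the SPRY1 adjusted p was 0.204 or 0.156 (over alternatives from 0.000913 to 0.411) and 1 gene of 5 tested was called down, while without Scr library 2 the count was 3 of 5.

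The genes that ERK signalling induces include phosphatases of ERK and early transcription factors. Of 11 tested in miR-27a KO against Scr, 5 fell, 0 rose and 6 did not pass, where 6.74% of all genes were called down. An unadjusted p under 0.05 was reached by 10, against 32.2% of all genes. The list was chosen with earlier results of these data known, so these shares are a description and not a test. The median log2 fold change was -1.29, over alternatives from -1.46 to -0.95. DUSP4, a phosphatase of ERK, measured 7.86 and 6.42 CPM in Scr, 0.424 and 0.603 in the miR-27a KO libraries and 4.95 and 3.82 in the miR-23a KO libraries (log2 fold change -3.78, adjusted p 0.00783). DUSP6, the cytoplasmic ERK phosphatase, measured 69.9 and 83.8 in Scr, 28.1 and 32.1 in the miR-27a KO libraries and 41.6 and 54.9 in the miR-23a KO libraries (log2 fold change -1.35, adjusted p 0.00847). In both genes the miR-27a KO libraries were the lowest. EGR1, an immediate early transcription factor, fell by 1.70 (adjusted p 0.0232) and PHLDA1, a gene induced by growth factors, fell by 1.29 (adjusted p 0.0256). ETV4, the most abundant per kilobase, had -0.41 (adjusted p 0.0505), and -0.16 with the correction for GC content and length. The count of genes down was 8 without Scr library 2 and 3 without miR-27a KO library 2, where EGR1 had an adjusted p of 0.0502 (over alternatives from 1.3e-06 to 0.218), and 1, DUSP4, with all 6 libraries in the fit. The activity of ERK itself was not analysed here.

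GRB2 (Entrez 2885, chr17:75318076-75405709, minus strand) carries activated receptors to SOS and RAS. Its level was 210.5 and 205.8 CPM in Scr, 162.9 and 168.6 in the miR-27a KO libraries and 174 and 183 in the miR-23a KO libraries. Every knockout library lay below both Scr libraries, with miR-27a KO lowest. GRB2 was 1.26-fold lower in miR-27a KO than in Scr (log2 fold change -0.33, SE 0.08, edgeR adjusted p 0.0470), which is short of the 1.5-fold needed for a call. The interval was -0.52 to -0.14. Its adjusted p ranged from 0.000669 to 0.985 over the alternatives and was 0.569 and 0.496 without miR-27a KO library 1 and 2.

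Of the 23 genes that relay the signal from receptors through GRB2 to ERK, 2 rose, 2 fell and 19 did not pass. The shares of all genes called up and down are 3.52% and 6.74%. The median log2 fold change was 0.01, as over all genes. It was -0.04 with the correction for GC content and length and 0.19 without Scr library 2. The receptors ERBB2 and ERBB3 rose. ERBB2 measured 45.1 and 35.7 CPM in Scr, 91.1 and 72.2 in the miR-27a KO libraries and 65.6 and 44.9 in the miR-23a KO libraries (log2 fold change 1.01, adjusted p 0.0253). ERBB3 measured 334.5 and 274.4 in Scr, 526.6 and 527.4 in the miR-27a KO libraries and 103.2 and 170.9 in the miR-23a KO libraries (log2 fold change 0.79, adjusted p 0.0188). The kinase MAP2K2 fell by 0.80 (adjusted p 0.00999) and the adaptor SHC1 fell by 0.59 (adjusted p 0.0152), and correcting for GC content and length took both under 1.5-fold, at -0.54 and -0.43. No gene of the relay was called by edgeR without miR-27a KO library 1, with adjusted p 0.0994 for ERBB2, 0.0836 for ERBB3, 0.0866 for MAP2K2 and 0.233 for SHC1. Without library 2 only ERBB2 was, with 0.0992 for ERBB3, 0.121 for MAP2K2 and 0.224 for SHC1. Over all alternatives the adjusted p ran from 2.89e-05 to 0.436 for ERBB2, 1.89e-06 to 0.701 for ERBB3, 4.13e-09 to 0.938 for MAP2K2 and 1.44e-05 to 0.953 for SHC1. Without Scr library 1 the count was 3 up and 1 down, with SHC1 at -0.56, and without Scr library 2 it was 5 up and 2 down.

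FBXW7 (Entrez 55294, chr4:152320544-152536063, minus strand) recruits phosphorylated proteins such as cyclin E, MYC and NOTCH1 to the SCF ubiquitin ligase. It measured 4.66 and 4.46 CPM in Scr, 5.09 and 4.94 in the miR-27a KO libraries and 2.44 and 10.7 in the miR-23a KO libraries. Both miR-27a KO libraries were just above both Scr libraries, and the miR-23a KO libraries were the lowest and the highest of the 6. The log2 fold change of miR-27a KO over Scr was 0.13 (SE 0.24, edgeR adjusted p 0.742), and -0.002 with the correction for GC content and length, which turns the sign. The interval was -0.48 to 0.74, so a gain of 1.5-fold cannot be told from none at counts of 66 to 84 per library.

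Of 19 tested genes that are partners or substrates of FBXW7 in the SCF ligase, 1 rose, 2 fell and 16 did not pass. Among all genes, 3.52% were called up and 6.74% down. The list had a median of 0.11. That median was 0.02 without Scr library 2, 0.04 without miR-27a KO library 1 and in limma-trend, and 0.03 with the correction for GC content and length. NOTCH1, a receptor whose cleaved form is an FBXW7 substrate, measured 9.04 and 7.03 CPM in Scr, 19.8 and 20.6 in the miR-27a KO libraries and 5.02 and 4.15 in the miR-23a KO libraries (log2 fold change 1.32, adjusted p 0.0181). CDC34, a ubiquitin-conjugating enzyme that works with SCF ligases, fell by 1.02 (adjusted p 0.00635), from 253.6 and 236.0 in Scr to 124.1 and 117.2. CCNE1, cyclin E1, fell by 0.88 (adjusted p 0.022). These are RNA levels, and FBXW7 acts on proteins. Only CDC34 was called without miR-27a KO library 1 or 2, and NOTCH1 had an adjusted p of 0.0868 or 0.123 and CCNE1 of 0.114 or 0.0763. Over all alternatives these ran from 9.78e-05 to 0.253 for NOTCH1 and from 4.67e-05 to 0.402 for CCNE1. The count was 2 up and 2 down without Scr library 1 and 3 up and 3 down without Scr library 2.

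FOXO1 (Entrez 2308, chr13:40469953-40666597, minus strand) drives genes of gluconeogenesis and growth arrest when insulin signalling is low. It measured 21.6 and 24.5 CPM in Scr, 27.4 and 23.9 in the miR-27a KO libraries and 10.8 and 27.7 in the miR-23a KO libraries. The miR-27a KO and Scr libraries overlapped, and the miR-23a KO libraries were again the lowest and the highest. The log2 fold change of miR-27a KO over Scr was 0.15 (SE 0.15, edgeR adjusted p 0.523), with an interval of -0.22 to 0.52. It was 0.03 with the correction for GC content and length, 0.07 and 0.25 without Scr library 1 and 2, and 0.05 and 0.26 without miR-27a KO library 1 and 2.

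Of 16 tested FOXO factors and FOXO1 target genes, 2 rose, 4 fell and 10 did not pass, with a median of -0.26. For all genes the shares called up and down are 3.52% and 6.74%. PCK1, the gluconeogenic enzyme, measured 4.87 and 3.85 CPM in Scr, 0.0606 and 0.0603 in the miR-27a KO libraries and 3.20 and 6.03 in the miR-23a KO libraries. That is 127 counts in Scr against 2 in miR-27a KO, a ratio of 72.1 with a 95% counting interval of 19.5 to 601.4 (adjusted p 0.00701). PPARGC1A, a coactivator of the same programme, went the other way, with 1.11 and 2.97 in Scr, 0 in both miR-23a KO libraries and 9.82 and 9.22 in miR-27a KO (log2 fold change 2.21, adjusted p 0.0374). Its log2 fold change was 3.09 without Scr library 2 and 1.68 without Scr library 1. TXNIP, which restrains glucose uptake, fell by 1.31 (adjusted p 0.0373) and GADD45A, a growth arrest gene, fell by 1.08 (adjusted p 0.0269). For TXNIP the log2 fold change was -0.84 and -1.65 without Scr library 1 and 2. IGFBP1 had 238.1 and 83.8 in Scr and 75.0 and 80.7 in miR-27a KO (log2 fold change -1.05, adjusted p 0.19) and was called down without Scr library 2 (log2 fold change -1.61, adjusted p 2.62e-06), while without Scr library 1 it had -0.10 (adjusted p 0.257, over alternatives from 2.62e-06 to 0.932). The count was 3 up and 5 down without Scr library 2. Without miR-27a KO library 1 or 2 the calls were 0 up and 2 down, or 0 up and 1 down: PPARGC1A then had an adjusted p of 0.0927 or 0.101 and GADD45A of 0.094 or 0.098, and TXNIP had 0.0813 without library 2. Over all alternatives the adjusted p ran from 0.000145 to 0.347 for PPARGC1A, 4.07e-05 to 0.376 for GADD45A and 3.56e-06 to 0.65 for TXNIP.

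ZBTB10 (Entrez 65986, chr8:80485619-80526265, plus strand) is a repressor that competes with Sp transcription factors for GC-rich promoter elements. It measured 3.97 and 5.07 CPM in Scr, 6.91 and 6.57 in the miR-27a KO libraries and 1.98 and 8.99 in the miR-23a KO libraries. Both miR-27a KO libraries were above both Scr libraries and inside the range of miR-23a KO. ZBTB10 had the highest log2 fold change of the 7 in miR-27a KO, 0.57 (SE 0.25, 1.49-fold, edgeR adjusted p 0.186), which did not pass the test. The interval was -0.06 to 1.21. Without Scr library 2 the log2 fold change was 0.76 and the gene was called, at an adjusted p of 0.0295, while without Scr library 1 it was 0.41 and with the correction for GC content and length 0.34 (adjusted p 0.316). Over the alternatives the adjusted p ran from 0.0295 to 0.991.

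The Sp factors and genes tied to ZBTB10 include 8 with enough counts to test. By edgeR 0 rose and 0 fell, where 3.52% and 6.74% of all genes did. An unadjusted p under 0.05 was reached by 2, against 32.2% of all genes, and DESeq2 and limma-trend each called 0. The median log2 fold change was 0.21, and 0.07 with the correction for GC content and length. Of the 4 Sp factors, SP1 had 0.24 (adjusted p 0.151), SP3 0.64 (adjusted p 0.161) and SP4 0.66 (adjusted p 0.295), while SP2 had -0.29 (adjusted p 0.268). BIRC5, survivin, the most abundant of the list per kilobase, measured 142.8 and 150.8 CPM in Scr, 165.9 and 166.8 in the miR-27a KO libraries and 215.7 and 148.1 in the miR-23a KO libraries (log2 fold change 0.18, adjusted p 0.183). Without Scr library 2, 1 gene of the list was called up.

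PHB (Entrez 5245, chr17:49404049-49414905, minus strand) forms a ring with PHB2 in the inner mitochondrial membrane. It measured 428.8 and 434.3 CPM in Scr, 380.6 and 382.6 in the miR-27a KO libraries and 755.0 and 305.6 in the miR-23a KO libraries. The miR-27a KO libraries were below both Scr libraries, and those of miR-23a KO lay on either side of all others. The log2 fold change of miR-27a KO over Scr was -0.18 (SE 0.08, edgeR adjusted p 0.17), with an interval of -0.37 to 0.01, and -0.01 with the correction for GC content and length. The annotation lists 21 processed copies of PHB elsewhere in the genome, and how reads shared with them were assigned is not given in the sources used here.

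Of 15 genes of the prohibitin complex and inner membrane quality control, 2 fell, 0 rose and 13 did not pass, where 6.74% of all genes fell. An unadjusted p under 0.05 was reached by 7, against 32.2% of all genes. The median was 0.02, over alternatives from 0.01 to 0.06. PHB2, the partner of PHB, measured 528.6 and 508.8 CPM in Scr, 451.0 and 465.6 in the miR-27a KO libraries and 899.9 and 293.4 in the miR-23a KO libraries, with a log2 fold change of -0.18 (adjusted p 0.185) that became 0.02 with the correction for GC content and length. The proteases LONP1 and CLPP of the mitochondrial matrix fell, with log2 fold changes of -0.94 (adjusted p 0.0181) and -0.68 (adjusted p 0.0183). Correction for GC content and length took CLPP to -0.44, under 1.5-fold. EdgeR called 0 of the 15 without miR-27a KO library 1 or 2, with LONP1 at an adjusted p of 0.0609 or 0.087 and CLPP at 0.156 or 0.157 (over alternatives from 9.65e-08 to 0.679 for LONP1 and from 4.63e-05 to 0.985 for CLPP). CLPP had a log2 fold change of -0.57 without Scr library 1, where the count was 1 up and 1 down.

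PINK1 (Entrez 65018, chr1:20633455-20651511, plus strand) marks damaged mitochondria for removal by recruiting Parkin. It measured 1340 and 1232 CPM in Scr, 1156 and 1135 in the miR-27a KO libraries and 1323 and 801 in the miR-23a KO libraries. The miR-27a KO libraries were below both Scr libraries, and the miR-23a KO library 2 was the lowest of the 6. The log2 fold change of miR-27a KO over Scr was -0.17 (SE 0.09, edgeR adjusted p 0.253, interval -0.40 to 0.06), and 0.04 with the correction for GC content and length, which turns the sign. Without Scr library 1 and 2 it was -0.10 and -0.23.

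The PINK1 values carry a doubt about assignment. DDOST, a subunit of the enzyme that attaches glycans to proteins in the endoplasmic reticulum, lies on the other strand with its 3′ end 255 bases beyond that of PINK1, and the antisense transcript PINK1-AS overlaps PINK1 by 8855 bases and DDOST by 427. DDOST measured 54.3 and 25.3 CPM in Scr, 11.3 and 26.9 in the miR-27a KO libraries and 32.7 and 8.03 in the miR-23a KO libraries, and the ratio of PINK1 to DDOST counts ran from 24.7 to 102.5 over the libraries. PINK1 ranked between 56 and 101 among all genes. Whether reads of DDOST were counted under PINK1 was not tested. The labels name a TruSeq RNA kit and the methods of the study a stranded kit of that series, and whether the counting used the strand is not given in the sources used here. With the counts of both genes summed, an alternative chosen after seeing the data, the log2 fold change was -0.19 (adjusted p 0.226). For PINK1 the adjusted p ran from 0.000545 to 0.991 over its alternatives, this sum included.

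Of 19 tested genes of mitophagy by PINK1 and Parkin and by related receptors, 1 fell, 0 rose and 18 did not pass. An unadjusted p under 0.05 was reached by 7. All genes have 6.74% called down and 32.2% at that p. The median of the list was 0.16, which became -0.02 with the correction for GC content and length and 0.08 without Scr library 1. GABARAPL2, which coats the membranes of autophagosomes, measured 60.4 and 50.6 CPM in Scr, 36.0 and 37.0 in the miR-27a KO libraries and 48.9 and 41.7 in the miR-23a KO libraries (log2 fold change -0.61, adjusted p 0.0369). SQSTM1, the cargo receptor p62, had a log2 fold change of 0.32 (adjusted p 0.148). That value was 0.48 and 0.18 without Scr library 1 and 2, and 0.52 with the correction for GC content and length. GABARAPL2 had an adjusted p of 0.3 or 0.29 (over alternatives from 0.000263 to 0.751) without miR-27a KO library 1 or 2, where edgeR called 0 of the 19, and a log2 fold change of -0.47 without Scr library 1. Without Scr library 1 the count was 1 up and 0 down, and without Scr library 2 it was 2 up and 3 down.

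Other genes described as miR-27 targets include 10 with enough counts to test, of which 1 rose, 0 fell and 9 did not pass, with a median of 0.06. Called up and down were 3.52% and 6.74% of all genes. SEMA6A, a membrane-bound guidance cue, measured 11.7 and 13.5 CPM in Scr, 50.6 and 51.7 in the miR-27a KO libraries and 0.304 and 0.431 in the miR-23a KO libraries, so that no groups overlapped (log2 fold change of miR-27a KO over Scr 2.02, adjusted p 0.00400). RXRA, a nuclear receptor and the most abundant of these per kilobase, measured 155.1 and 153.2 in Scr, 132.2 and 137.0 in the miR-27a KO libraries and 279.7 and 116.6 in the miR-23a KO libraries (log2 fold change -0.20, adjusted p 0.145, and a log2 fold change of 0.06 with the correction for GC content and length). The median of the list was -0.03 with that correction, -0.08 without Scr library 1 and 0.42 without Scr library 2. Without Scr library 1 the count was 1 up and 1 down, and without Scr library 2 it was 2 up and 1 down.

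**Figure D4:**
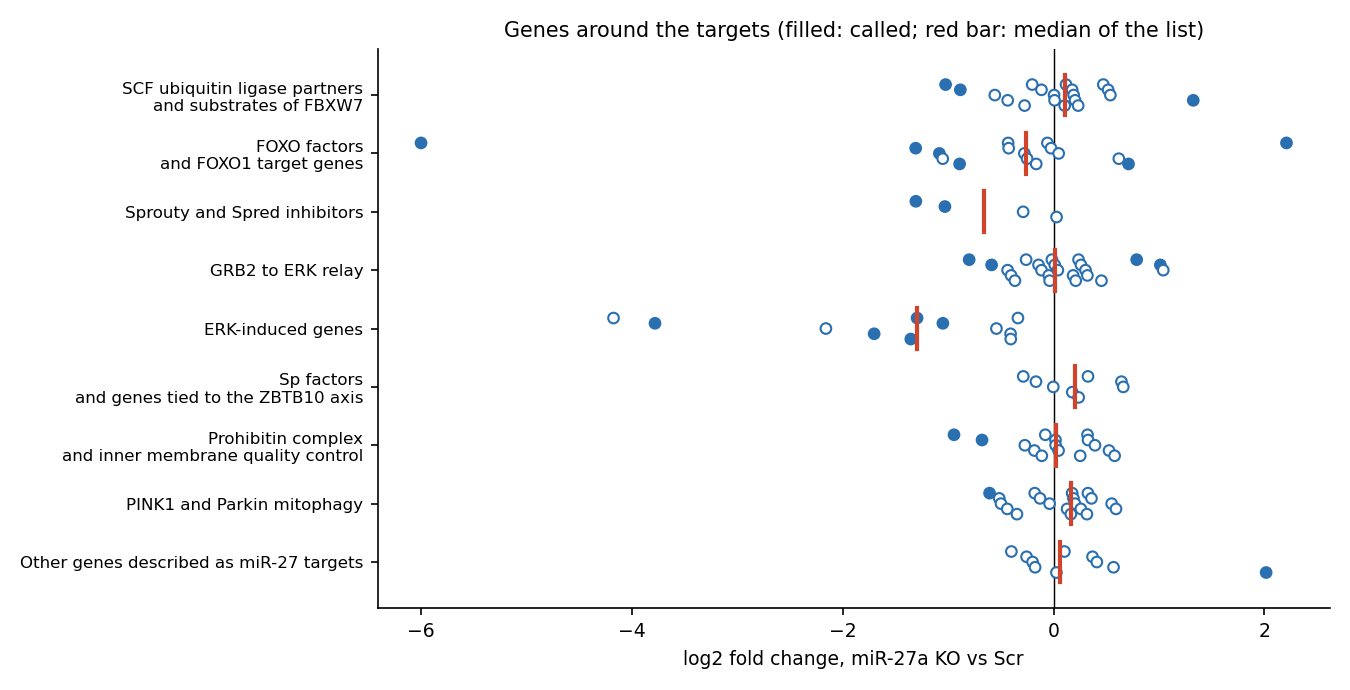
Log2 fold change of miR-27a KO over Scr for each tested gene of the gene lists, with filled points for called genes and a bar at the median of each list. Of the lists drawn, which leave out the cell type markers, the ERK-induced genes have the lowest median, -1.29, and the Sprouty and Spred genes the next, -0.66, beside 0.01 over all genes. The lists were chosen with earlier results of these data known.

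Among the marker lists, the hepatocyte genes had 1 up, 3 down and 7 not passed of 11 in miR-27a KO against Scr. The shares of all genes are 3.52% up and 6.74% down. Albumin (ALB) fell by 2.59 on the log2 scale (adjusted p 0.00538), AFP, the fetal plasma protein, fell by 4.11 (adjusted p 0.00262) and the fibrinogen gene FGB fell by 2.05 (adjusted p 0.0212), while transferrin (TF) rose by 1.25 (adjusted p 0.0212). FGB was below both Scr libraries (25.5 and 47.5 CPM) in miR-27a KO (8.67 and 9.04) and in miR-23a KO (13.2 and 13.6). AFP, by contrast, had 3810 and 6520 CPM in miR-23a KO against 2591 and 3916 in Scr. TF had an adjusted p of 0.086 with the correction for GC content and length and of 0.0623 without miR-27a KO library 2 (over alternatives from 4.76e-10 to 0.311). LYZ was the 1 gene up of 4 leukocyte markers tested (log2 fold change 1.96, adjusted p 0.00204). CD68, of the same list, was lower, with 161.7 and 151.9 CPM in Scr and 106.7 and 103.3 in the miR-27a KO libraries. Its log2 fold change was -0.58 (adjusted p 0.0166), short of 1.5-fold. Of these markers, edgeR called 0 down and DESeq2 called 1 down. PDGFRB, the only fibroblast marker tested, fell by 2.12 (adjusted p 0.0166). PECAM1, the only endothelial marker tested, had -0.12 (adjusted p 0.79), and 0.04 without miR-27a KO library 1. These moved in the same libraries as SPRY2 and the ERK-induced genes, and their part in those results was not tested.

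The comparison of miR-23a KO with Scr asks how the same genes stood when the neighbouring microRNA was edited. Its values share the Scr libraries with the comparison above, so no overlap between the comparisons is given. No gene was called. FBXW7 had a log2 fold change of 0.63 (SE 0.80), ZBTB10 of 0.39 (SE 0.82) and PHB of 0.34 (SE 0.53). PINK1 had -0.23 (SE 0.49), SPRY2, the gene with a miR-23a match, -0.24 (SE 0.55), FOXO1 -0.16 (SE 0.60) and GRB2 -0.15 (SE 0.43). Apart from GRB2, which was below both Scr libraries in each miR-23a KO library, the 6 other genes overlapped Scr. ZBTB10 turned negative with the correction for GC content and length (-0.36) and in limma-trend (-0.01).

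By edgeR 0 of the 7 were called up and 0 down, where the share of all 13786 genes tested is 0.0% and 0.0%, and each adjusted p was 1. An unadjusted p under 0.05 was reached by 0 of the 7 against 2.41% of all genes. DESeq2 called 63 genes and limma-trend 0, and neither called any of the 7. EdgeR called 2 genes with the correction for GC content and length, 69 with a replicate block and 95 with both, again none of the 7. Both libraries lay above Scr for 0 of the 7 (8.88% of all genes) and below for 1 (14.9%). The median was -0.15 over the 7 and 0.16 over all genes, and -0.19 and 0.02 with the correction for GC content and length. Over the 7 it was -0.07 without Scr library 2, 0.03 without miR-23a KO library 1 and -0.72 without library 2. With a miR-23a KO library left out, the spread came from the Scr pair alone, and calls do not cover that of miR-23a KO. Without miR-23a KO library 2, PHB was called up (log2 fold change 0.81, adjusted p 0.0169, over alternatives from 0.0169 to 1) and edgeR called 2630 genes, and without library 1 it called 594, none of them among the 7. Without Scr library 1 or 2 it called 4 or 9. For all 7 genes the 95% interval includes a difference of 1.5-fold in either direction.

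**Figure D5:**
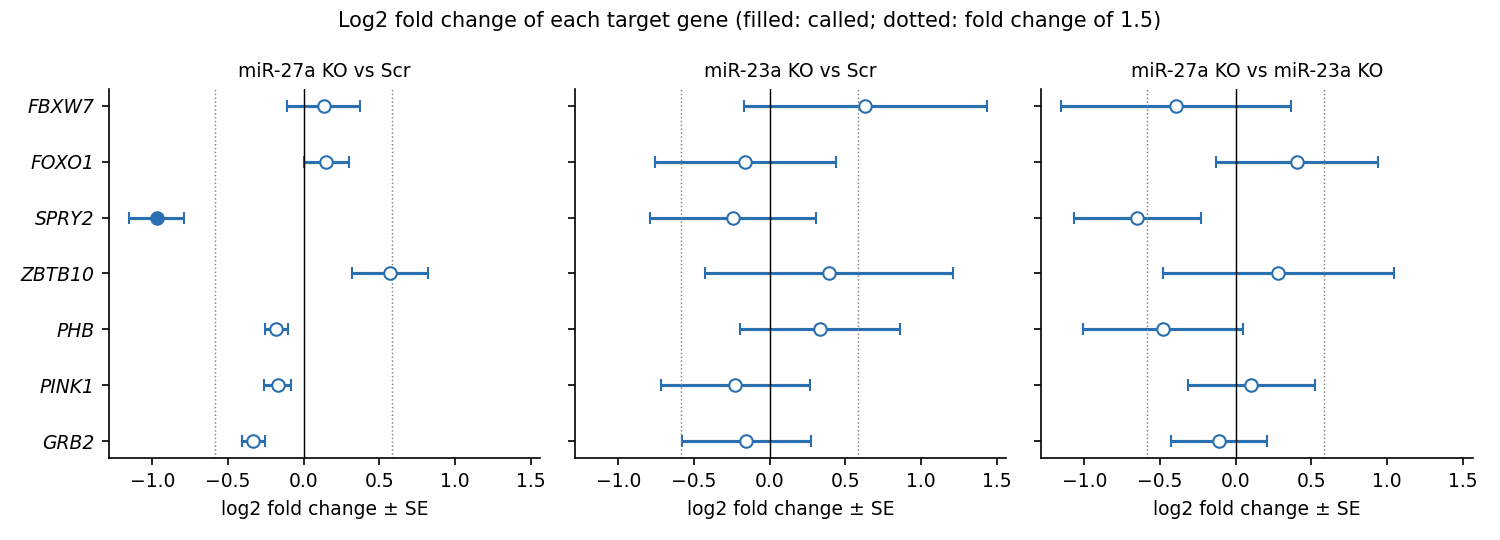
Log2 fold change ± SE from edgeR of the 7 genes in the 3 comparisons, with a filled point for a called gene and dotted lines at a fold change of 1.5. The filled point is SPRY2 in miR-27a KO against Scr (-0.97, SE 0.18), and the widest bar is that of ZBTB10 in miR-23a KO against Scr (SE 0.82).

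Setting miR-27a KO directly against miR-23a KO asks whether the edits differ from each other. SPRY2 (log2 fold change -0.65, SE 0.42, edgeR adjusted p 0.787) and GRB2 (-0.11, SE 0.32, adjusted p 0.947) had both miR-27a KO libraries below both miR-23a KO libraries. The other 5 genes lay inside the wide range of miR-23a KO. Their log2 fold changes were -0.40 for FBXW7, 0.41 for FOXO1, 0.28 for ZBTB10, -0.48 for PHB and 0.10 for PINK1. So the lower SPRY2 of miR-27a KO, which passed the test against Scr, was not shown to differ from miR-23a KO.

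In this comparison edgeR called 0 of the 7 up (0.0% of all 13841 genes tested) and 0 down (0.0%). An unadjusted p under 0.05 was reached by 0 of the 7 against 8.72% of all genes, and DESeq2 and limma-trend called 477 and 21 genes, none of them among the 7. EdgeR called 326 genes with the correction for GC content and length, 400 with a replicate block and 1187 with both, again none of the 7. Both libraries lay above for 0 of the 7 (20.7% of all genes) and below for 2 (18.7%). The median was -0.11 over the 7 and -0.11 over all genes. With the correction for GC content and length it was -0.22 over the 7 and -0.01 over all genes, and limma-trend gave -0.04 for the 7. Each miR-23a KO library alone gave another picture. With a miR-23a KO library left out, the spread came from the miR-27a KO pair alone. Its median squared difference over the counting variance was 0.822, against 71.6 in miR-23a KO. The calls of these fits therefore do not cover the spread of miR-23a KO. Without library 1, FBXW7 (-1.08) and SPRY2 (-0.95) were called down, and without library 2, FBXW7 (1.04), FOXO1 (1.24) and ZBTB10 (1.76) were called up and PHB (-0.99) down. FBXW7 is thus called in opposite directions, and edgeR called 4907 and 7303 genes in all. Without miR-27a KO library 1 or 2 it called 76 or 72, none of them among the 7.

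The genes most like each of the 7 over the 6 libraries were taken by Pearson r of log2 CPM among 10604 genes, as a description, since the libraries share base composition effects. SPRY2 was closest to TNFSF4 (r 0.997), a cytokine of the TNF family, with 17.3 and 18.5 CPM in Scr, 7.94 and 9.16 in the miR-27a KO libraries and 9.97 and 17.6 in the miR-23a KO libraries, and to DSTN (0.992), an actin-severing protein. GRB2 was closest to TERF2 (0.999), a telomere-binding protein, and MARCKS (0.997), and FOXO1 to FBXL4 (0.999) and SLC39A9 (0.996). FBXW7 was closest to SCRN1 (0.999) and SPATS2L (0.998), ZBTB10 to MBTD1 (0.999) and USP13 (0.998), and both pairs share the gap within miR-23a KO. PHB was closest to KIAA2013 (0.9995) and YIF1A (0.9994) and PINK1 to FBLIM1 and SDF4 (both 0.999). The number of genes with r over 0.99 was 158 for PHB and 64 for ZBTB10, against 2 for SPRY2 and 3 for GRB2, the genes with the smallest gaps within miR-23a KO.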

How the data were processed

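RNA of 6 HepG2 libraries, 2 in each of 3 groups, was sequenced. The authors deposited 1 table under column names that say FPKM, but its values are expected counts per gene by their form: library totals differ, and 42.6% to 51.0% of the values, zeros included, are exactly whole. The authors name HISAT, StringTie, Cufflinks and GATK, with versions and genome build not given in the sources used here. The values were rounded and tested in R 4.3.3 with edgeR 4.0.16 (filterByExpr, TMM, quasi-likelihood, each pair of groups on its own, Benjamini-Hochberg). CPM, library-size-scaled counts, were TMM-scaled over all 6 libraries. Library totals ran from 14405250 to 16515261 counts. Alternatives were DESeq2 1.42.0, limma-trend 3.58.1, median-ratio size factors, no filter, 1 fit of all libraries, a replicate block, a loess correction for GC content and length, and leaving out each library. Marker and pathway lists, 13 in all, were described by counts and medians. Named from each list were up to 4 genes called in miR-27a KO against Scr with the largest change, and the most abundant gene per kilobase, with the 2 genes most like each member. SP1, SP2, SP3, SP4, DDOST, SERPINA1, CD68 and PTPRC were named after their values were seen. The members and lists were chosen with earlier results of these data known.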

Additional observations from a re-analysis of the deposited data

Results flagged for a closer look

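Of 56 genes named, 5 had both miR-27a KO libraries above both Scr libraries and both miR-23a KO libraries below them. All 5 had been named because they were called up in miR-27a KO against Scr, and both comparisons share the Scr libraries, so their number is a description. Over all 13841 genes tested between the knockout groups, 4.62% lay on opposite sides of Scr in this direction. The direct edgeR test between the knockout groups did not pass for any of the 5. The log2 fold change of miR-27a KO over miR-23a KO was 2.13 for NOTCH1 (adjusted p 0.155), 1.94 for ERBB3 (adjusted p 0.211), 7.06 for SEMA6A (adjusted p 0.0803) and 3.29 for LYZ (adjusted p 0.101). PPARGC1A, with 0 counts in both miR-23a KO libraries, was at least 48.8-fold higher in miR-27a KO than a floor of 3 counts per library (adjusted p 0.099).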

How the results depend on the processing

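Between miR-27a KO and Scr, 1 of the 7 genes, SPRY2, was called, and the count was the same under 7 of 8 alternatives that kept all libraries. It was 0 with all 6 libraries in the fit, and 0 to 2 when a library was left out. Against Scr, miR-23a KO had 0 calls under those 8 alternatives and 0 to 1 when a library was left out, and miR-27a KO against miR-23a KO had 0 and 0 to 4. The median over the 7 in miR-27a KO against Scr, -0.17, was -0.1522 with no filter, -0.002 with the correction for GC content and length and -0.0008 with that correction and the replicate block. Leaving out a library gave -0.1711 to -0.1034 there, -0.7202 to 0.0294 for miR-23a KO against Scr and -0.1363 to -0.0747 for miR-27a KO against miR-23a KO. With the GC and length correction, without and with the block, the log2 fold change turned for FBXW7 (-0.002 and -0.0008) and PINK1 (0.0419 and 0.0419) in miR-27a KO against Scr and for ZBTB10 (-0.3635 and -0.4296) in miR-23a KO against Scr, where limma-trend gave -0.0084. Leaving out a miR-23a KO library turned signs. Against Scr the log2 fold changes of miR-23a KO ran from -0.9023 to 1.2677 for FBXW7, -1.0902 to 0.3094 for FOXO1, -0.7202 to 0.0294 for SPRY2, -1.1879 to 1.0349 for ZBTB10, -0.454 to 0.8072 for PHB and -0.6387 to 0.0412 for PINK1. In miR-27a KO against miR-23a KO they ran from -1.0805 to 1.035 for FBXW7, -0.1048 to 1.2401 for FOXO1, -0.4096 to 1.7588 for ZBTB10, -0.9891 to 0.3269 for PHB and -0.2126 to 0.5222 for PINK1. The causes were not tested. A library left alone in its group is assumed to vary like the other group. Replicates of different groups share only a number: their deviations from the group mean correlated across 10608 genes at 0.272 (Scr with miR-23a KO), -0.016 (Scr with miR-27a KO) and 0.0258 (miR-23a KO with miR-27a KO). With a replicate block the medians were -0.17, -0.16 and -0.06 in the 3 comparisons. The depth limits FBXW7 and ZBTB10 most, with 26 to 198 counts per library.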
